A study of Homo sapiens with 40 samples.

Results

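SR proteins bind exons through an RNA recognition domain and help the spliceosome to recognise them through a domain rich in serine and arginine. The set described here is 8 of the genes that encode them, SRSF1, SRSF2, SRSF4, SRSF5, SRSF6, SRSF7, SRSF10 and SRSF11, taken by name. An event belonged to the set where an exon row of the authors' tables carried the gene's Ensembl identifier, or where a listed retained intron lay on its strand inside the outermost coordinates of the gene's exon rows. This gave 22 of the 19077 events of the series, 21 skipped exons and 1 retained intron. SRSF7 had 7 exons and the intron, SRSF11 had 5 exons, SRSF10 had 4, SRSF4 had 3, and SRSF2 and SRSF6 had 1 each. No exon row carried the identifier of SRSF1 or SRSF5, so neither gene had bounds by which an intron could be assigned to it, and neither is among the 22 events.

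SR protein genes are known for splicing switches in their own transcripts. Many carry a cassette exon, often called a poison exon, whose inclusion exposes the mRNA to nonsense-mediated decay, and several SR proteins promote that inclusion in their own or each other's transcripts. Retention of the intron that holds such an exon is another known route to less productive mRNA.

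All cells were HEK293 Flp-in T-REx, a human line of embryonic kidney origin made for inducible transgenes, carrying a pcDNA5 transgene for an α-amanitin-resistant (Amr) form of Rpb1, the large subunit of RNA polymerase II. The groups were Rpb1 Amr R749H, Rpb1 Amr H1106Y, Rpb1 Amr E1126G and Rpb1 Amr WT, where R749H and H1106Y are known as slow and E1126G as fast elongating forms. Every group, WT included, had the transgene switched on by doxycycline (12 to 16 h) and was then kept for 42 h in α-amanitin, which blocks the cells' own polymerase. The study asked how splicing depends on the speed of the polymerase. RNA-seq of polyA+ RNA had 2 libraries each of R749H, E1126G and WT. RASL-seq, in which probe pairs are ligated at chosen exon junctions and counted, had 3 libraries per genotype, H1106Y included. The labels name 1 cell line and do not say whether the lines with each transgene came from separate clones, or whether the libraries came from separate cultures.

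All levels below were computed from the authors' deposited tables, which hold pooled ratios and no value per library, so no level has an SD and the depth behind it is unknown. Inclusion is the percentage 100 × ratio / (1 + ratio), with the ratio of inclusion to exclusion reads, and retention of an intron is the same percentage. An event was called where the deposited p-value, adjusted by the Benjamini-Hochberg method over its whole table, was at or under 0.05. The ± beside a log2 change is the standard error that the deposited p-value implies. The tables hold ratios and no expression level, so markers of the line were not checked. In bulk polyA+ RNA, a large change in some cells cannot be told apart from a smaller one in all, nor a change in splicing from a change in the decay of one form.

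The called exons of SRSF2, SRSF6 and SRSF7 lie in short stretches between their flanking exons, of 875 to 1506 nt. On the GRCh37 build, the SRSF2 exon (chromosome 17, 74731854 to 74731957, minus strand) is 104 nt long and lies in a span of 995 nt between its flanking exons. The SRSF6 exon (chromosome 20, 42087793 to 42088060, plus strand) has 268 nt in a span of 1261 nt. The main SRSF7 exon (chromosome 2, 38976040 to 38976488, minus strand) has 449 nt and fills 51.3% of its 875-nt span, with 182 nt of intron before it and 244 nt after it. A 276-nt form of that exon (38976040 to 38976315) starts at a downstream 3′ splice site and ends at the same 5′ splice site, so both forms share reads. The retained SRSF7 intron (38975796 to 38976670) is the whole of this 875-nt span. The exons of 104, 268 and 449 nt have lengths that are no multiple of 3, so their inclusion shifts the frame of any coding sequence read through them. The 276-nt and 36-nt exons of SRSF7 are multiples of 3. Stop codons were not read here.

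**Figure D1:**
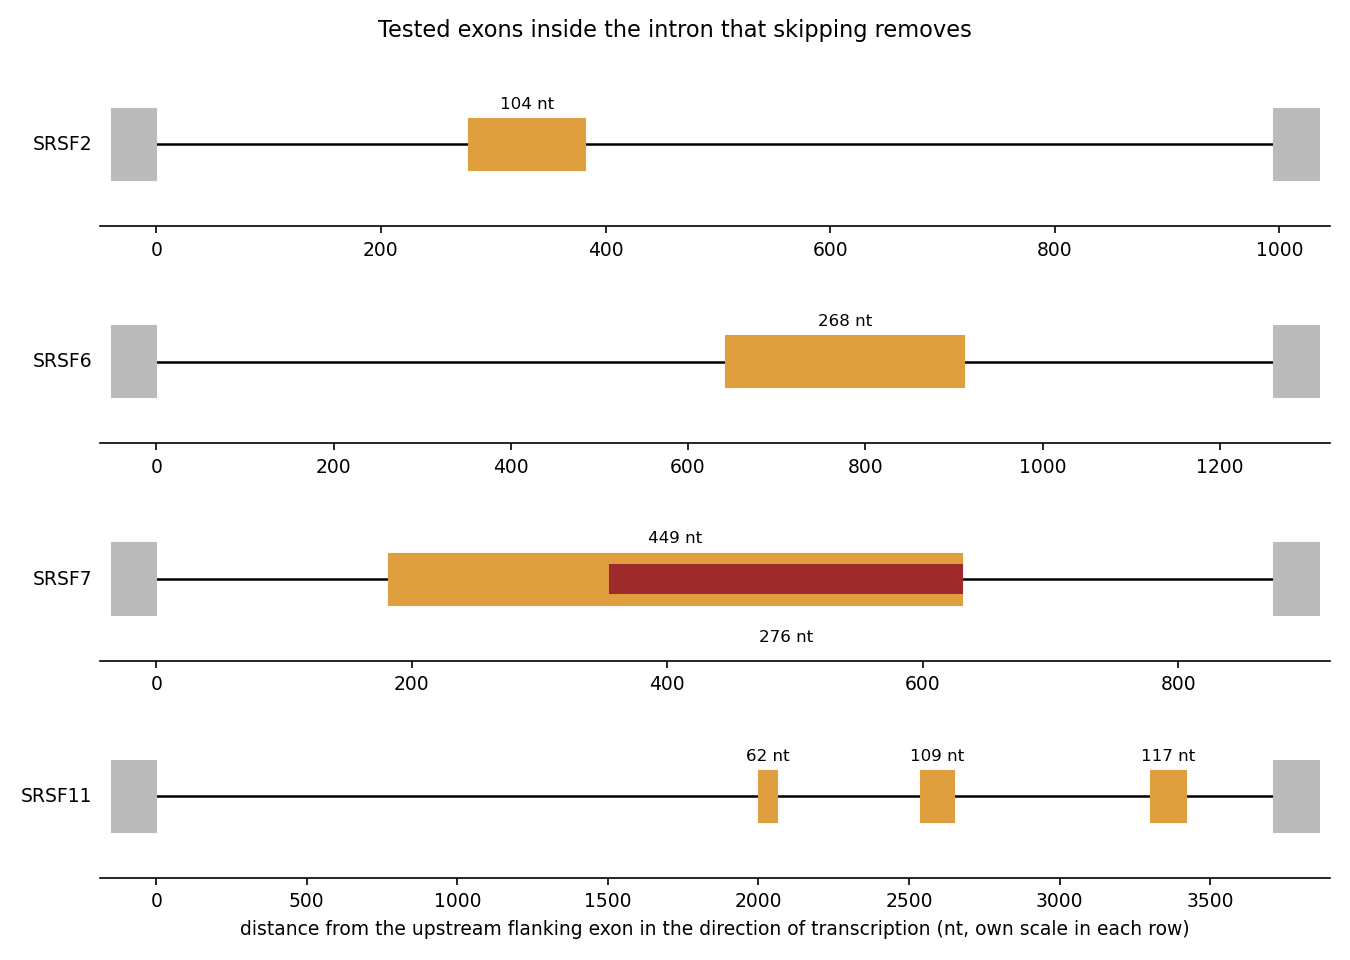
Position of the tested exons of SRSF2, SRSF6, SRSF7 and SRSF11 (coloured boxes) in the span between the flanking exons (grey, not to scale), drawn in the direction of transcription, with the distance from the upstream flanking exon in nt on each horizontal axis. The 449-nt exon fills 51.3% of its SRSF7 span, and the darker box inside it is the 276-nt form with the same 5′ splice site.

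Lengths and spans of the set are given as a description beside those of all exon events. The 21 exons had a median length of 102 nt, from 33 to 449 nt, against 108 nt for the 14650 exon events of the E1126G RNA-seq table. Their spans had a median of 2539 nt, against 4991 nt for all. A length that is a multiple of 3 was found for 14 of the 21 exons (66.7%), against 43.5% of all. The median WT inclusion in RNA-seq was 74.7% for the set and 90.8% for all exons of that table. Many of these exons overlap or share flanking exons, so they are not independent of each other.

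In R749H cells the 104-nt exon of SRSF2, the 268-nt exon of SRSF6 and the 276-nt, 449-nt and 36-nt exons of SRSF7 were included more than in WT cells in RNA-seq, by 5.48 to 41.5 percentage points. Of 18 exons of the set in this comparison, 6 were called, 5 with higher and 1 with lower inclusion, while 15.1% of all 14358 events were called, 7.07% higher and 8.04% lower. The 276-nt and 449-nt forms share reads, so they are not separate observations. The median log2 change of the 18 was 0.32, against -0.0048 for all events. In E1126G cells 3 of 21 exons were called, 1 higher and 2 lower, while 6.48% of all 14650 events were called, 2.20% higher and 4.27% lower. The median of the 21 was 0.27, against -0.084 for all events. R749H and E1126G were set against the same WT libraries, so their changes are not independent.

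SRSF2, long known as SC35, acts in constitutive and alternative splicing. Its 104-nt exon had an inclusion of 64.6% in R749H cells and 37.7% in E1126G cells, against 27.8% in WT cells, in the authors' deposited table. The R749H level was thus far above both others, and E1126G lay nearer to WT. The R749H change of 2.25 ± 0.25 on the log2 scale was called, with an adjusted p of 1.85e-16 (Benjamini-Hochberg, from the authors' deposited table). It was rank 36 of the 14358 events by p. The E1126G change, 0.65 ± 0.26 in the authors' deposited table, did not pass (adjusted p = 0.116, Benjamini-Hochberg).

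SRSF6 regulates alternative splicing. Its 268-nt exon was the member that changed most in E1126G cells. In the authors' deposited table its inclusion was 93.7% in R749H cells and 97.3% in E1126G cells, against 73.4% in WT cells. Both mutants were higher than WT. The log2 changes in the authors' deposited table were 2.43 ± 0.48 for R749H (adjusted p = 1.55e-05, Benjamini-Hochberg) and 3.73 ± 0.60 for E1126G (adjusted p = 8.78e-08). The R749H change minus the E1126G change, -1.30 with an approximate 95% interval of -2.80 to 0.20, did not pass the test between mutants described further on (adjusted p = 0.582, Benjamini-Hochberg). This exon was in no RASL-seq table.

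SRSF7 couples splicing to mRNA export and 3′ end formation, and it held 4 of the 8 called events. Of these, the 276-nt and 449-nt exons and the intron lie in 1 span and are not separate observations. SRSF7 also held 7 of the 21 exons of the set and the 1 intron. Its 449-nt exon had an inclusion of 66.8% in R749H cells and 33.9% in E1126G cells, against 25.3% in WT cells, in the authors' deposited table. The log2 change in R749H was 2.57 ± 0.28 (adjusted p = 6.12e-18, Benjamini-Hochberg, from the authors' deposited table), the largest among exons of the set in that comparison. For E1126G the authors' deposited table gave 0.60 ± 0.27, which did not pass (adjusted p = 0.200). The 276-nt form followed the same order, with 45.6% in R749H cells and 20.7% in E1126G cells, against 14.7% in WT cells, in the authors' deposited table. Its R749H change of 2.28 ± 0.29 was called (adjusted p = 1.39e-12), and its E1126G change of 0.60 ± 0.29 was not (adjusted p = 0.249, both Benjamini-Hochberg, from the authors' deposited table). A 36-nt exon further downstream in SRSF7 (38973286 to 38973321) was mostly included everywhere, with 97.1% in R749H cells and 93.0% in E1126G cells, against 91.6% in WT cells, in the authors' deposited table. It was also called higher in R749H, by 1.62 ± 0.33 (adjusted p = 2.56e-05), but not in E1126G, where the change was 0.27 ± 0.29 (adjusted p = 0.718, Benjamini-Hochberg, from the authors' deposited table).

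The 875-nt SRSF7 intron that holds the 449-nt exon was retained more in R749H cells as well. Retention was 71.5% in R749H cells and 35.3% in E1126G cells, against 38.5% in WT cells, in the authors' deposited table. R749H stood apart, and E1126G lay just under WT. The R749H change of 2.00 ± 0.25 was called (adjusted p = 4.25e-13, Benjamini-Hochberg, from the authors' deposited table), where 18.9% of 2605 introns were called, 11.9% higher and 6.99% lower. It was rank 23 of the 2605 introns by p. The E1126G change of -0.20 ± 0.27 did not pass (adjusted p = 0.762), in a table where 9.18% of 2615 introns were called, 4.51% higher and 4.67% lower. The exon and intron rows have the same outer splice sites, and no source used here says how retention reads were counted, so reads inside the 449-nt exon may enter both values.

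**Figure D2:**
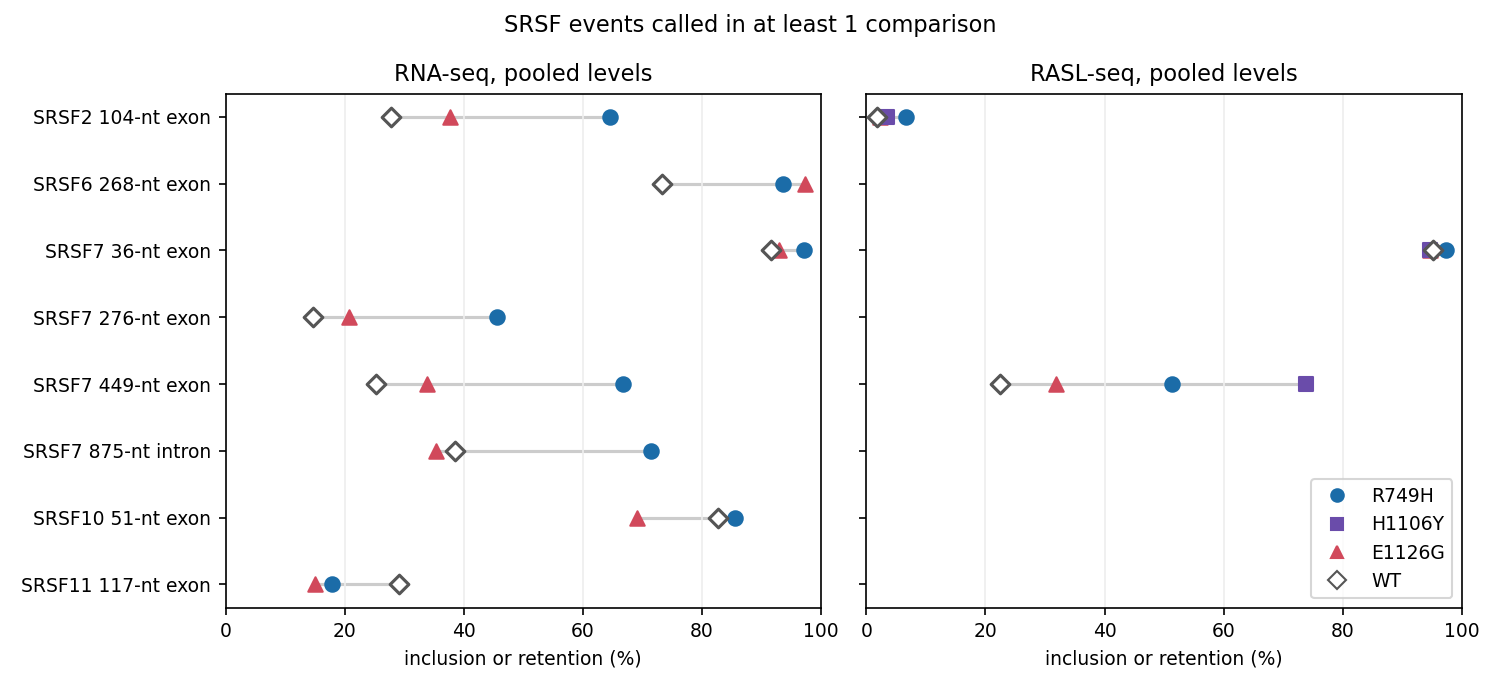
Inclusion of exons or retention of an intron, in percent, for the 8 SRSF events called in at least 1 comparison, with RNA-seq on the left and RASL-seq on the right, and 1 symbol per genotype for its pooled level (no error can be given). In RNA-seq the R749H circles of SRSF2 (64.6%), the SRSF7 449-nt exon (66.8%) and the SRSF7 intron (71.5%) lie far to the right of WT, while in the RASL-seq row of the SRSF7 449-nt exon the H1106Y square lies farthest right at 73.9%.

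The remaining calls were lower in the mutants. SRSF11 is an SR-related protein, and its 117-nt exon (chromosome 1, 70697542 to 70697658, plus strand) had an inclusion of 17.9% in R749H cells and 15.0% in E1126G cells, against 29.1% in WT cells, in the authors' deposited table. Both mutants were lower than WT, by -0.91 ± 0.30 (adjusted p = 0.0225) and -1.22 ± 0.31 (adjusted p = 0.00290) on the log2 scale (Benjamini-Hochberg, from the authors' deposited table). It was the single exon of the set called lower in R749H, and the R749H call was lost at a threshold of 0.01. SRSF10, known to turn into a splicing repressor when it loses its phosphates, had an exon in forms of 51 nt (chromosome 1, 24298063 to 24298113, minus strand) and 54 nt that differ by 3 nt at the 3′ splice site. In the 4126-nt span the 51-nt form had an inclusion of 85.5% in R749H cells and 69.1% in E1126G cells, against 82.7% in WT cells, in the authors' deposited table. The E1126G change of -1.10 ± 0.34 was called (adjusted p = 0.0290) and the R749H change of 0.30 ± 0.41 was not (adjusted p = 0.726, Benjamini-Hochberg, from the authors' deposited table). The 54-nt form had 89.4% in R749H cells and 81.1% in E1126G cells, against 89.4% in WT cells, and its E1126G change of -0.97 ± 0.33 in the authors' deposited table lay just outside the threshold (adjusted p = 0.0555). The forms share reads, so they count as 1 observation.

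The other 14 exons were called in no comparison. In SRSF4, a large SR protein gene, exons of 90, 215 and 195 nt had inclusions of 97.8%, 99.3% and 2.26% in R749H cells and 97.7%, 98.9% and 4.09% in E1126G cells, against 97.3%, 98.3% and 2.37% in WT cells, in the authors' deposited tables. Their levels thus stayed within 2 percentage points of WT. In SRSF11, a 62-nt exon in the same intron as the 117-nt exon had 51.9% in R749H cells and 63.0% in E1126G cells, against 74.7% in WT cells, in the authors' deposited table. Its R749H change of -1.45 ± 0.64 had the smallest adjusted p, 0.111, among exons of the set not called in that comparison. A 109-nt exon of SRSF11 is listed in 2 spans. Against joining to the 117-nt exon it had 64.7% in R749H cells and 64.3% in E1126G cells, against 44.3% in WT cells, and against skipping the whole 3712-nt span it had 4.76%, 3.40% and 4.18% in R749H, E1126G and WT cells, in the authors' deposited tables. None of these differences passed, with adjusted p from 0.212 to 0.863 (Benjamini-Hochberg). A 33-nt SRSF11 exon had 6.04% in R749H cells and 6.36% in E1126G cells, against 9.47% in WT cells, in the authors' deposited table. In SRSF7, a 69-nt exon had 0.654% in R749H cells and 0.112% in E1126G cells, against 0.231% in WT cells, and exons of 111, 102 and 78 nt with a shared 3′ splice site lay at 99.7% to 99.9% in both E1126G and WT cells, in the authors' deposited tables. The 51-nt and 54-nt forms of SRSF10 in the shorter span of 3893 nt had 97.6% and 98.7% in R749H cells and 99.0% and 99.7% in E1126G cells, against 98.7% and 99.5% in WT cells, in the authors' deposited tables. The implied errors of the log2 changes of these forms reached 1.79.

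**Figure D3:**
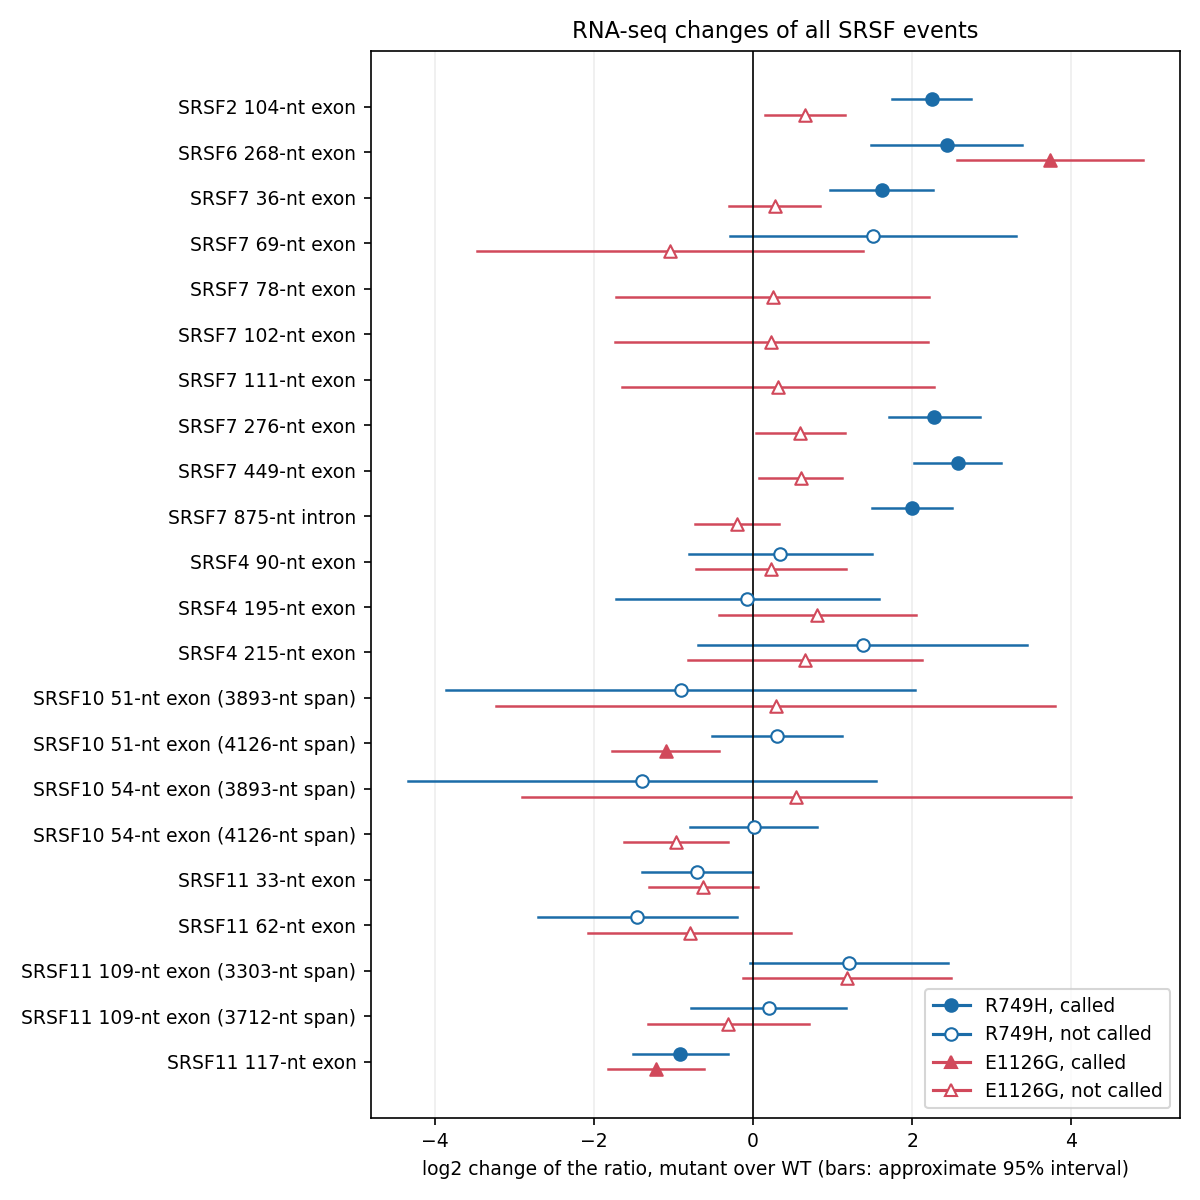
Log2 change of the inclusion or retention ratio in RNA-seq, R749H (circles) and E1126G (triangles) over WT, for all 22 SRSF events, with approximate 95% intervals from the deposited p-values as bars and filled symbols for called events. The R749H circles of SRSF2, SRSF6 and the SRSF7 exons of 276 and 449 nt and the SRSF7 intron lie between 2.00 and 2.57, and SRSF11 117-nt is the event called lower in both mutants.

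RASL-seq added H1106Y, the other slow form, for 4 exons of the set. Of these, 3 were called higher in R749H, and none lower, in a table where 44.1% of 2248 events were called, 24.0% higher and 20.1% lower. In H1106Y 2 of the 4 were called, both higher, where 61.9% of 2070 events were called, 23.7% higher and 38.2% lower. In E1126G 2 of the 4 were called, both higher, where 47.5% of 2312 events were called, 13.9% higher and 33.6% lower. Over all events the median log2 change was 0.05 in R749H, -0.33 in H1106Y and -0.37 in E1126G, so the last 2 tables are shifted towards lower inclusion and changes in them are also given relative to that median. All 3 mutants were compared with the same WT libraries.

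The 449-nt exon of SRSF7 was among the strongest responses of H1106Y cells in the whole assay. Its inclusion was 51.3% in R749H cells, 73.9% in H1106Y cells and 31.9% in E1126G cells, against 22.5% in WT cells, in the authors' deposited tables. All 3 mutants were higher than WT, and H1106Y was highest. The log2 changes in the authors' deposited tables were 1.86 ± 0.24 in R749H (adjusted p = 6.25e-14), 3.29 ± 0.13 in H1106Y (adjusted p = 3.15e-145) and 0.69 ± 0.08 in E1126G (adjusted p = 8.39e-19, all Benjamini-Hochberg). Relative to the table medians they were 1.81, 3.61 and 1.06. The H1106Y change was rank 5 of the 2070 events by p and rank 16 by the rise in percentage points, 51.4. The approximate 95% intervals of H1106Y, 3.04 to 3.53, and R749H, 1.397 to 2.32, did not overlap, but the difference itself was not tested.

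SRSF2 gave the reverse order of the slow forms at much lower levels. Its 104-nt exon had 6.69% in R749H cells, 3.53% in H1106Y cells and 2.23% in E1126G cells, against 1.70% in WT cells, in the authors' deposited tables. The WT level of 1.70% stood against 27.8% in RNA-seq, and levels are compared only within an assay. The cause of this gap was not tested. The log2 changes in the authors' deposited tables were 2.05 ± 0.28 in R749H (adjusted p = 1.97e-12), 1.08 ± 0.23 in H1106Y (adjusted p = 8.96e-06) and 0.40 ± 0.17 in E1126G (adjusted p = 0.0345, all Benjamini-Hochberg). Relative to the table medians they were 2.01, 1.41 and 0.78. The difference between R749H and H1106Y was not tested for this exon either. The R749H change in RASL-seq stood beside 2.25 in RNA-seq, which used other libraries.

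The 36-nt exon of SRSF7 had 97.3% in R749H cells, 94.7% in H1106Y cells and 94.7% in E1126G cells, against 95.1% in WT cells, in the authors' deposited tables. R749H alone was called, higher by 0.89 ± 0.24 (adjusted p = 0.00107, Benjamini-Hochberg). H1106Y, at -0.13 ± 0.21 (adjusted p = 0.625), and E1126G, at -0.10 ± 0.13 (adjusted p = 0.550, Benjamini-Hochberg, from the authors' deposited tables), were not called, and both become positive, 0.20 and 0.27, relative to their table medians. The 109-nt exon of SRSF11, against skipping the 3712-nt span, had 4.87% in R749H cells, 6.24% in H1106Y cells and 5.81% in E1126G cells, against 6.95% in WT cells, in the authors' deposited tables. None of the 3 was called (adjusted p = 0.124, 0.676 and 0.316, Benjamini-Hochberg), and the changes of -0.17 in H1106Y and -0.28 in E1126G become 0.16 and 0.10 relative to the table medians.

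**Figure D4:**
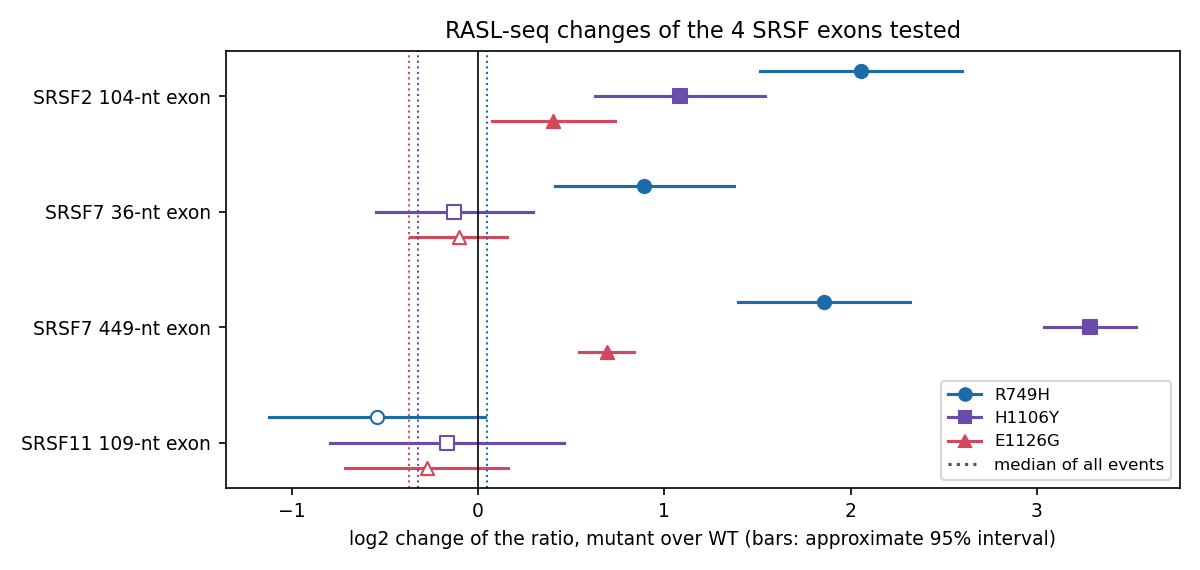
Log2 change of the inclusion ratio in RASL-seq for the 4 SRSF exons measured, with R749H, H1106Y and E1126G over WT, approximate 95% intervals as bars, filled symbols for called events and a dotted line for each table's median over all events. The SRSF7 449-nt exon reaches 3.29 in H1106Y and the SRSF2 exon 2.05 in R749H, while the 3 symbols of SRSF11 are open.

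The changes of a slow form and of E1126G were then compared with each other, by an approximate z test from the implied errors with Benjamini-Hochberg adjustment over all shared events. It treats the errors as independent although the WT libraries are shared. In RNA-seq, 3 of 18 exons differed between R749H and E1126G, where 1.74% of 13247 events did. The 276-nt and 449-nt forms of SRSF7 are both among the 3 and share reads, so they are not separate observations. The R749H change exceeded that of E1126G by a log2 of 1.60 (approximate 95% interval 0.89 to 2.30, adjusted p = 0.00234) for the SRSF2 exon. For the SRSF7 exons the excess was 1.97 (1.22 to 2.72, adjusted p = 1.58e-04) at 449 nt and 1.68 (0.88 to 2.49, adjusted p = 0.00634) at 276 nt. The SRSF7 intron differed by 2.20 (1.47 to 2.92, adjusted p = 1.65e-06), where 3.06% of 2518 introns differed. The called exons of SRSF10 and SRSF11 did not pass, with differences of 1.396 (0.34 to 2.45, adjusted p = 0.210) for the 51-nt form and 0.31 (-0.54 to 1.15, adjusted p = 0.926) for the 117-nt exon, nor did the SRSF7 36-nt exon at 1.34 (0.48 to 2.20, adjusted p = 0.0907).

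In RASL-seq, 3 of the 4 exons differed between R749H and E1126G, where 33.8% of 2127 events did. The differences were 1.65 (1.02 to 2.28, adjusted p = 4.13e-06) for SRSF2, 1.17 (0.68 to 1.65, adjusted p = 2.32e-05) for the SRSF7 449-nt exon and 0.997 (0.45 to 1.54, adjusted p = 0.00207) for the SRSF7 36-nt exon. Part of each is shared by the whole assay. Relative to the median difference of all shared events they were 1.21, 0.73 and 0.56, and whether they pass on that scale was not tested. Between H1106Y and E1126G, 2 of the 4 differed, where 49.2% of 1983 events did. The SRSF7 449-nt exon differed by 2.60 (2.31 to 2.88, adjusted p = 6.89e-67) and the SRSF2 exon by 0.68 (0.12 to 1.24, adjusted p = 0.0373). Relative to the median difference these were 2.53 and 0.61, also not tested again. The SRSF11 109-nt exon passed in neither, with -0.27 (-0.99 to 0.46) for R749H minus E1126G and 0.11 (-0.66 to 0.88) for H1106Y minus E1126G.

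For the SRSF2 and SRSF7 exons called in at least 3 tables, the events most like them were found by the Euclidean distance of the 5 changes in percentage points, among 1430 exons in all 5 exon tables. Nearest to the SRSF2 exon were exons of FGFR1, a growth factor receptor, at 6.17 points, KTN1, a kinesin-binding protein, at 9.0 points, and BLVRA, biliverdin reductase, at 9.24 points. Nearest to the SRSF7 449-nt exon was a 120-nt exon of ACIN1, an SR-related protein, at 16.4 points, followed by forms of 93 nt and 51 nt of 1 exon of RCC1, a nuclear exchange factor, at 20.9 and 22.9 points. The H1106Y rise of 51.4 points in the SRSF7 exon stood beside 54.5 points in ACIN1 and 64.0 points in both forms of RCC1. In E1126G the SRSF7 exon was higher than WT by 8.61 points in RNA-seq and 9.41 in RASL-seq, and the ACIN1 exon by 11.5 and 11.8 points. The RCC1 forms of 93 nt and 51 nt lay on the other side of WT in E1126G, at -3.05 and -5.97 points in RNA-seq and both at -2.21 points in RASL-seq.

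Other genes of the SR protein pathway are given by counts, first for RNA-seq exons. Overlapping forms of an exon were counted separately, so the counts are not of independent exons. Over all exon events, 7.07% were called higher and 8.04% lower in R749H with a median log2 change of -0.0048, and 2.20% higher and 4.27% lower in E1126G with a median of -0.084. Of 61 exons of other SR and SR-related proteins in R749H, 11 were called higher and 4 lower, with a median of 0.37. In E1126G 7 of 60 were higher and 2 lower, with a median of 0.25. The 456-nt exon of SRSF3 had 83.7% in R749H cells and 48.5% in E1126G cells, against 10.4% in WT cells, in the authors' deposited tables. In RASL-seq its order in these mutants was reversed, with 67.6% in R749H cells and 72.2% in E1126G cells, against 37.7% in WT cells. RASL-seq values of the other exons named here, and RASL-seq counts of these lists, are not given. The 276-nt exon of TRA2B, a partner of SR proteins, had 58.9% in R749H cells and 63.8% in E1126G cells, against 27.8% in WT cells, in the authors' deposited tables. A 78-nt exon of RSRC2 was called lower in both mutants. In the authors' deposited tables it had 14.9% in R749H cells and 18.8% in E1126G cells, against 31.6% in WT cells. Among the kinases that phosphorylate SR proteins and their nuclear importer, 5 of 17 exons were higher and 2 lower in R749H (median 0.52), and 4 of 19 were higher and 2 lower in E1126G (median 0.26). A 91-nt exon of the kinase CLK1 had 81.0% in R749H cells and 71.7% in E1126G cells, against 55.2% in WT cells, in the authors' deposited tables. The 2 kinase exons called lower in each mutant were overlapping forms of 59 and 836 nt in CLK4. In the authors' deposited tables the 59-nt form had 7.63% in R749H cells and 21.0% in E1126G cells, against 46.3% in WT cells. The hnRNPs, which often oppose SR proteins, had 10 higher and 14 lower of 65 in R749H (median -0.16) and 4 higher and 5 lower of 64 in E1126G (median -0.15). Factors of nonsense-mediated decay had 1 higher and 4 lower of 16 in R749H (median -0.25) and 1 higher and 4 lower of 18 in E1126G, there with a median of 0.54. Overlapping UPF3B forms of 91 and 39 nt are among the lower ones in both mutants. Introns of these genes gave other counts. Of 13 introns of SR and SR-related proteins, 3 were called higher and 1 lower in R749H (median -0.26), and 0 higher and 2 lower in E1126G (median -0.41). Of 5 introns of the kinases and importer, 2 were higher in R749H (median 0.078) and 2 lower in E1126G (median -0.21). Of 12 introns of the hnRNPs, 1 was higher and 2 lower in R749H (median -0.24), and 1 was lower in E1126G (median 0.13). Over all introns, 11.9% were called higher and 6.99% lower in R749H, with a median of 0.044. In E1126G 4.51% of all introns were called higher and 4.67% lower, with a median of -0.022. The 1 intron of a decay factor, in the E1126G table, was not called.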

How the data were processed

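RNA-seq reads (paired, 100 bp) were mapped per library with TopHat 1.4.1, per the labels' protocols; the submitters' processing notes also name Bowtie 0.12.7, edgeR 3.7.17 and GRCh37. The authors deposited 7 tables of their own comparisons, which hold, for WT, the natural log of inclusion over exclusion reads, then the log2 change of this ratio in a mutant, and an unadjusted p-value whose test no source used here names. Tables named by a code are R749H, since that group's sample descriptions cite them. The bases were checked on the values: read as natural logs, 62.9% to 94.4% of the WT ratios were fractions of whole numbers with a denominator of at most 300 (tolerance 1e-09), against 0.396% or fewer read as base 2. Higher intron values were taken as more retention, since 40 of 45 gaps under 40 nt lay above 50%.

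Adjustment of the deposited p-values followed Benjamini and Hochberg over each whole table. Implied standard errors are the absolute log2 change divided by the normal quantile of the p-value. The test between mutants left out events with no such error (37, 3, 2 and 2 events). Gene bounds for introns were the outermost coordinates of a gene's exon rows. Python 3.11.15, pandas 2.3.3, numpy 2.4.6, scipy 1.17.1 and matplotlib 3.10.9 were used. Every event called in at least 1 comparison is named with all its levels; the most similar events are the 3 nearest of other genes. The members, lists and tests were chosen with earlier results of these data known. Levels of included and skipped forms were not corrected for the number of junctions. GRO-seq libraries are not analysed here. Without values per library, the deposited p-values may measure technical spread alone, and depth is unknown. Alternatives tried were thresholds of 0.01 and 0.1, the Benjamini-Yekutieli adjustment, events of 5% to 95% WT level, changes of at least 10 points, directions against the table median, repeated coordinates counted once, and introns that only overlap a gene.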

Additional observations from a re-analysis of the deposited data

Results flagged for a closer look

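The changes of 2 mutants differed by the approximate test for several SRSF events, given here as the log2 change of the first minus that of the second. Between R749H and E1126G in RNA-seq, the SRSF2 104-nt exon differed by 1.60, the SRSF7 276-nt exon by 1.68, the SRSF7 449-nt exon by 1.97 and the SRSF7 875-nt intron by 2.20. Between R749H and E1126G in RASL-seq, the SRSF2 104-nt exon differed by 1.65, the SRSF7 449-nt exon by 1.17 and the SRSF7 36-nt exon by 0.997. Between H1106Y and E1126G in RASL-seq, the SRSF2 104-nt exon differed by 0.68 and the SRSF7 449-nt exon by 2.60. In each case the change of R749H or H1106Y was the higher. The RASL-seq differences listed here include the shift of the whole assay between the mutants. The 276-nt and 449-nt exons and the intron share splice sites and reads, so they are not separate observations.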

How the results depend on the processing

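Of 80 alternative counts of called SRSF events, 66 lay within 1.5 times the reported count, among them the intron counts, which rest on 1 intron. The others were RASL-seq counts over 4 exons. With WT levels of 5% to 95% alone, which leaves 2 of the 4 exons, the counts fell to 1 for R749H, H1106Y and E1126G against WT, and to 1 for R749H and for H1106Y against E1126G. With changes of at least 10 points they were 1, 1 and 0 against WT, and 1 and 1 against E1126G. At a threshold of 0.01 and under the Benjamini-Yekutieli adjustment, the counts for E1126G against WT and for H1106Y against E1126G were 1 each, through the loss of the SRSF2 exon (adjusted p from 0.0344 to 0.287 and from 0.0373 to 0.305 over the alternatives, the highest under Benjamini-Yekutieli). Under the same adjustment the RNA-seq calls of SRSF11 117-nt in R749H (adjusted p from 0.0168 to 0.229 over the alternatives), SRSF10 51-nt in E1126G (0.0216 to 0.295) and the difference between R749H and E1126G in SRSF7 276-nt (0.00399 to 0.0638) were also lost; at 0.01 the SRSF11 call in R749H and the SRSF10 call were lost, and at 0.1 the R749H to E1126G difference in SRSF7 36-nt was gained. For single events, 244 alternatives gave the same call, 18 lost it and 1 gained it. Of the 244, 39 were directions against the table median. The adjusted p was kept there, so the call could not change and these are no check of it. A result reported as not called could not become called at 0.01, under Benjamini-Yekutieli or with changes of at least 10 points. A result reported as called could not be lost at 0.1. Such results are also among the 244 and are no check of the call either. No paired analysis was possible because the tables hold no value per library, and for that reason no replicate could be left out. Depth is unknown, so how far it limits the uncalled events was not tested.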

Other observations

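Of the retained introns with no gene name in the tables, 3 lie on chromosome 14, plus strand, between the outermost rows of the named genes SLC39A9 and COX16. In the gene order of GRCh38, 4 genes of that strand lie between these, PLEKHD1, SUSD6, SRSF5 and SMOC1, so none of the introns was assigned to SRSF5. A 285-nt intron (70235614 to 70235898, GRCh37) had a retention of 23.5% in R749H cells and 18.4% in E1126G cells, against 11.4% in WT cells, in the authors' deposited tables, and was called higher in both (log2 1.25, adjusted p = 1.23e-05, and log2 0.81, adjusted p = 0.0415, Benjamini-Hochberg). A 1215-nt intron (70235969 to 70237183) had 80.3% in R749H cells and 64.1% in E1126G cells, against 61.8% in WT cells, and was called higher in R749H alone (log2 1.33, adjusted p = 2.33e-06, against log2 0.14, adjusted p = 0.840, in E1126G, Benjamini-Hochberg, from the authors' deposited tables). A 259-nt intron (70235969 to 70236227) starting at the same 5′ splice site had 97.3% in R749H cells and 92.1% in E1126G cells, against 97.3% in WT cells, in the authors' deposited tables, and was called lower in E1126G (log2 -1.62, adjusted p = 0.00832, Benjamini-Hochberg). Between CUEDC1 and MKS1, whose GRCh38 interval holds SRSF1 and VEZF1 on the minus strand, the tables list no intron of that strand.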
